A study of Mus musculus with 48 samples.

Results

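Reads of 44 genes of DNA replication and mitosis were followed through 48 libraries of mouse fibroblast reprogramming. The genes were chosen by name and matched to transcripts of exactly those names, and all 44 were found among the 24264 transcripts of the count table. They comprise 20 replication genes (Mcm2 to Mcm7, Cdc6, Cdt1, Gins1, Gins2, Pcna, Pola1, Prim1, Fen1, Lig1, Rrm1, Rrm2, Tyms, E2f1, and Mybl2) and 24 mitosis genes (Ccna2, Ccnb1, Ccnb2, Cdk1, Cdc20, Ube2c, Plk1, Aurka, Aurkb, Birc5, Cdca8, Bub1, Bub1b, Mad2l1, Ttk, Cenpa, Cenpe, Cenpf, Kif11, Kif20a, Tpx2, Nusap1, Top2a, and Mki67). The lists are described separately throughout.

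Before a cell can divide, the MCM helicase is loaded onto DNA by CDC6 and CDT1, activated together with the GINS complex, and followed by the polymerases, whose sliding clamp is PCNA. Mitosis is then driven by CDK1 with B-type cyclins, and it ends when the anaphase-promoting complex and CDC20 have cyclin B destroyed. Genes of both processes are transcribed in waves. E2F factors act ahead of S phase, and MYBL2 (B-MYB) with the MuvB core of the DREAM complex, and FOXM1, act ahead of mitosis. Pluripotent cells are known for short gap phases and rapid division.

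The 20 conditions were mouse embryonic fibroblasts (MEFs), cells sorted during reprogramming, induced pluripotent stem cells (iPSCs), and embryonic stem cells (ESCs). WT MEFs carried no transgene. MKOS and OKMS MEFs descended from ESCs of the TNG line, which holds a Nanog-GFP reporter, after targeting of a doxycycline-inducible cassette and a CAG-driven rtTA into an intron of Sp3. Both cassettes hold Myc, Klf4, Oct4, and Sox2 in the orders their names spell, and they also differ in Klf4, which is the long form in MKOS and a form shortened at its N terminus in OKMS. In comparisons of the cassettes, the order of the factors and the form of Klf4 cannot be told apart. MKOS and OKMS MEFs were taken from chimeric embryos, so that their libraries may also hold host cells without the cassette, and the share of these was not tested. Reprogramming cultures, in which transgenic MEFs were a small minority plated among WT MEFs, received doxycycline and vitamin C for 10 or 15 days by the labels, and for 10 days by the methods. Sorted cells were 2NG- (CD44- ICAM1- Nanog-GFP-), 3NG- (CD44- ICAM1+ Nanog-GFP-), or 3NG+ (CD44- ICAM1+ Nanog-GFP+). All of these were E-CAD+ (positive for the epithelial cadherin), and in OKMS cultures 2NG- and 3NG- cells were also sorted as E-CAD-. The 8 sorted populations had 3 libraries each. The other 12 conditions had 2 libraries each: WT, MKOS, and OKMS MEFs, MKOS and OKMS iPSCs kept without doxycycline (-dox) or in 2i (a medium with inhibitors of MEK and GSK3), D6 iPSCs, and the ESC lines E14 and TNG, the latter also with the MKOS or the OKMS cassette (TNG MKOS and TNG OKMS). Each cassette was thus represented by 1 targeted locus, and nothing in the labels ties libraries to separate embryos or cultures, so p-values measure the spread between libraries, which may be technical.

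The libraries were made with STRT, which tags the 5′ ends of transcripts, so that reads do not scale with transcript length. Levels are given as CPM, the reads of a transcript scaled to all reads on transcripts in the library. Libraries held 1429717 to 14174725 reads on transcripts (median 6243255), and 3 reads corresponded to 0.212 to 2.1 CPM. These limits and all counts cover counting error only. Of the members, 43 had reads in all 48 libraries, and all 44 passed the filter on low counts. The marker lists separated MEFs from the other conditions, and E-CAD- from E-CAD+ 2NG- and 3NG- cells, but not every population. Nanog was at 75.7 CPM in MKOS 3NG- replicate 3, above the 51.1 CPM of MKOS 3NG+ replicate 1. Fibroblast markers of MKOS 3NG- libraries, at 914 to 1556 CPM, overlapped with the 844 to 1240 CPM of OKMS E-CAD- libraries. Epithelial markers were at 203 to 336 CPM in 3NG+ libraries. Summed fibroblast markers stood at 3942 to 6646 CPM in MEFs and at 99.0 to 1556 CPM elsewhere, pluripotency markers at 2.19 to 11.5 CPM in MEFs with Nanog at 0, and epithelial markers at 67.5 to 192 CPM in E-CAD- cells against 618 to 1281 CPM in E-CAD+ 2NG- and 3NG- cells. Macrophage markers (6 of the 7 listed were in the table) were present in MEFs, at 223 and 238 CPM in WT, 126 and 111 CPM in OKMS, and 16.7 and 15.1 CPM in MKOS libraries, and in the sorted cells. Their sum was lowest in replicate 3 in 8 of 8 sorted populations, at 21.0 to 159 CPM against 71.0 to 1885 CPM in replicates 1 and 2. It was 3.64 to 23.8 CPM in ESCs and iPSCs with Ptprc, C1qa, and C1qb at 0 in all of them. The summed replication genes moved against it. They were highest in replicate 3 in 7 of 8 sorted populations, at 2375 to 3277 CPM against 1708 to 2995 CPM in replicates 1 and 2. The summed mitosis genes were highest in replicate 3 in 5 of 8. The part of macrophage RNA in the members' levels was not tested.

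For each member the reads unique to the gene were also given. They made up more than 95% of the reads of 33 members. Reads of Ccnb1 were unique for 6.34%, and its values are therefore uncertain, since reads of near-identical copies may have been counted in. The shares were 59.7% for Mybl2, 69.4% for Pcna, 79.9% for Cdc20, and 84.6% to 92.1% for Mcm7, Mki67, Tyms, Plk1, Rrm2, Cdc6, and Lig1.

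Promoter windows, 250 bases before to 50 bases after a RefSeq transcription start (GRCm38.p6), were available for 37 members, 17 of replication and 20 of mitosis. Windows of Mcm4, Gins1, Gins2, Ccna2, Aurkb, Kif20a, and Tpx2 were not used here. The windows were searched on both strands for E2F letters (TTCCCGC or TTGGCGC), for the letters of the cell cycle genes homology region, CHR (TTTGAA or TTCGAA), and for CCAAT boxes. Overlapping matches were counted separately. E2F letters were found in 11 of 21 windows of replication genes (52.4%), in 3 of 20 windows of mitosis genes (15.0%), and in 6.81% of all 32851 windows. CHR letters showed the opposite distribution, with 3 of 21 (14.3%), 15 of 20 (75.0%), and 19.2%. Both a CHR and a CCAAT match were present in 2 replication windows (9.52%), 15 mitosis windows (75.0%), and 7.53% of all windows. These are matches of letters, not sites shown to be bound, and sites written in other letters were missed.

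The following windows belong to 3 replication and 3 mitosis genes on which the results below turn or which show the letters typical of their list. They are Mcm3 (chr1:20820263-20820562, minus strand), Cdc6 (chr11:98907901-98908200, plus strand), Mybl2 (chr2:163054385-163054684, plus strand), Ccnb2 (chr9:70421505-70421804, minus strand), Cdc20 (chr4:118437294-118437593, minus strand), and Plk1 (chr7:122159185-122159484, plus strand). The windows of Cdc6 and Mybl2 lie inside the genes, which begin at 98907709 and 163054327. Bases before those gene starts were not searched. Capitals mark E2F, CHR, and CCAAT letters on either strand, and each sequence is written 5′ to 3′ along the gene's strand. Mcm3 held 3 E2F matches, of which 2 overlap in the last run of capitals, and 3 CCAAT matches. Cdc6 held 1 E2F match and Mybl2 none of the searched letters. The Mybl2 window holds the stretch ttggcggga, which is close to the searched E2F letters but is not matched by them. The lack of a match therefore does not show the lack of an E2F site. Ccnb2 held 2 CHR and 3 CCAAT matches, Cdc20 1 CHR and 2 CCAAT matches, and Plk1 1 of each.
Mcm3: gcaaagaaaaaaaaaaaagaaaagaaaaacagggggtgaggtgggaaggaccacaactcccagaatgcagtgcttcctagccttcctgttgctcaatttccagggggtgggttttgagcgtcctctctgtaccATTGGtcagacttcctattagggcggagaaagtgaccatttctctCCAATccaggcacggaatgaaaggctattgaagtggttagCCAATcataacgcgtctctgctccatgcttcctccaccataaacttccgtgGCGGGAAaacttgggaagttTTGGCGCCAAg
Cdc6: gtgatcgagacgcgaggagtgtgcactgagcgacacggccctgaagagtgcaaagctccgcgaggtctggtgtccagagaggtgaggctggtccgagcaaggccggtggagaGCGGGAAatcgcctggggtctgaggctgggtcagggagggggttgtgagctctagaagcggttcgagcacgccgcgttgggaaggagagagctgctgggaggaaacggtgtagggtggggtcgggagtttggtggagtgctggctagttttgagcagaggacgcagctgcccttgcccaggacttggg
Mybl2: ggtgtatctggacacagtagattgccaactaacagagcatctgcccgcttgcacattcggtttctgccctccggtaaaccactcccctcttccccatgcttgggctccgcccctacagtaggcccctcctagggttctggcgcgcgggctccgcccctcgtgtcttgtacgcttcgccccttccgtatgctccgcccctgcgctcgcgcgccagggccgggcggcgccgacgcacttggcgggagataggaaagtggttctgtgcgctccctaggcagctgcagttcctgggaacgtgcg
Ccnb2: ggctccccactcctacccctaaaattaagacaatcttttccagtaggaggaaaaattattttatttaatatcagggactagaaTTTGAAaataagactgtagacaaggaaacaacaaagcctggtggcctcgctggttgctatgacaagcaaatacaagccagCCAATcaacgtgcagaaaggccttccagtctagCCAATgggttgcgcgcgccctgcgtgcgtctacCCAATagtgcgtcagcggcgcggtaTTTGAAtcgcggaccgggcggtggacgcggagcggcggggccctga
Cdc20: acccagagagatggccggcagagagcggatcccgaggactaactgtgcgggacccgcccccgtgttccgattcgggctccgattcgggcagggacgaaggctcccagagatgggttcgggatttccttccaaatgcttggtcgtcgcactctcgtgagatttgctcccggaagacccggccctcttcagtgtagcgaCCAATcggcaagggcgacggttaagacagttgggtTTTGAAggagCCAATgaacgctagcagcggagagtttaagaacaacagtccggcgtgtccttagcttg
Plk1: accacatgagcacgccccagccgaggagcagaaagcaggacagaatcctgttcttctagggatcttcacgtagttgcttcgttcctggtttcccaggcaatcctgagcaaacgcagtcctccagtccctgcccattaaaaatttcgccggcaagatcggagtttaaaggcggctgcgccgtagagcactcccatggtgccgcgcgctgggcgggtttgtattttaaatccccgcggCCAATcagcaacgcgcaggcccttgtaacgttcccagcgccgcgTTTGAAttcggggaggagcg

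Both summed lists were lowest in MEFs. Replication genes together averaged 1235, 905, and 786 CPM in WT, MKOS, and OKMS MEFs. In E-CAD- and E-CAD+ Nanog-GFP- cells the averages were 2028 to 2684 CPM, in 3NG+ cells 2742 (OKMS) and 3042 CPM (MKOS), and in iPSCs and ESCs 2769 to 3378 CPM. Summed mitosis genes averaged 2076, 1326, and 1123 CPM in WT, MKOS, and OKMS MEFs, 2868 to 3827 CPM in Nanog-GFP- cells, 3256 and 3828 CPM in OKMS and MKOS 3NG+ cells, and 3501 to 4216 CPM in iPSCs and ESCs. No library of the MEFs overlapped with any other library in either sum. Abundant members such as Top2a and Pcna weigh most in these sums. In these bulk libraries, fewer cells of a type and less RNA per cell cannot be told apart.

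**Figure D1:**
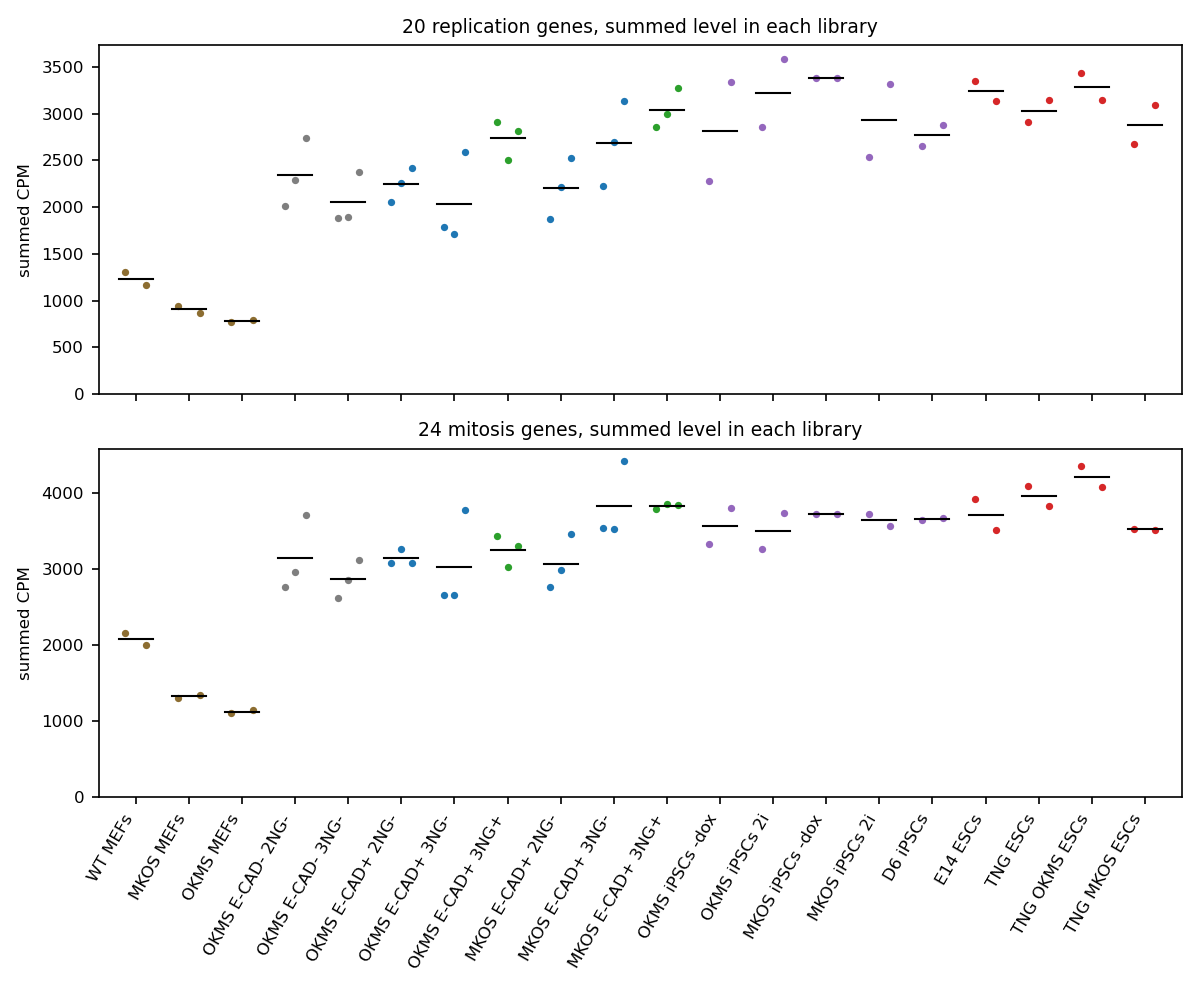
Summed CPM (vertical axes) of the 20 replication genes (upper panel) and the 24 mitosis genes (lower panel) in each of the 48 libraries (points), by condition, with bars at the condition means. All 6 MEF libraries lie below all others in both panels, and replicate 3 of OKMS E-CAD+ 3NG- lies at 2585 and 3772 CPM, above the other libraries of its condition.

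The balance between the lists, taken as the mean log2(CPM + 1) of the mitosis genes minus that of the replication genes, separated the conditions differently. It averaged 0.70, 0.46, and 0.37 in WT, MKOS, and OKMS MEFs, and 0.20 to 0.37 in the Nanog-GFP- sorted populations. In OKMS 3NG+ cells the 3 libraries lay between -0.08 and 0.06, below the 0.17 to 0.47 of the 6 E-CAD+ 2NG- and 3NG- libraries. The 3 MKOS 3NG+ libraries lay between -0.06 and 0.13, below the 0.18 to 0.38 of MKOS 3NG- libraries. Averages of iPSCs and ESCs ranged from -0.25 to 0.18. Single libraries of iPSCs and ESCs ranged from -0.30 (MKOS iPSCs in 2i replicate 2) to 0.29 (OKMS iPSCs -dox replicate 1), and the highest of them overlapped with the sorted Nanog-GFP- libraries. Among the E-CAD+ sorted cells, the 3NG+ libraries of each cassette did not overlap with its 3NG- libraries, and replication genes were the higher, relative to mitosis genes, in 3NG+ cells. This is a description of the lists, and no test was made of it.

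**Figure D2:**
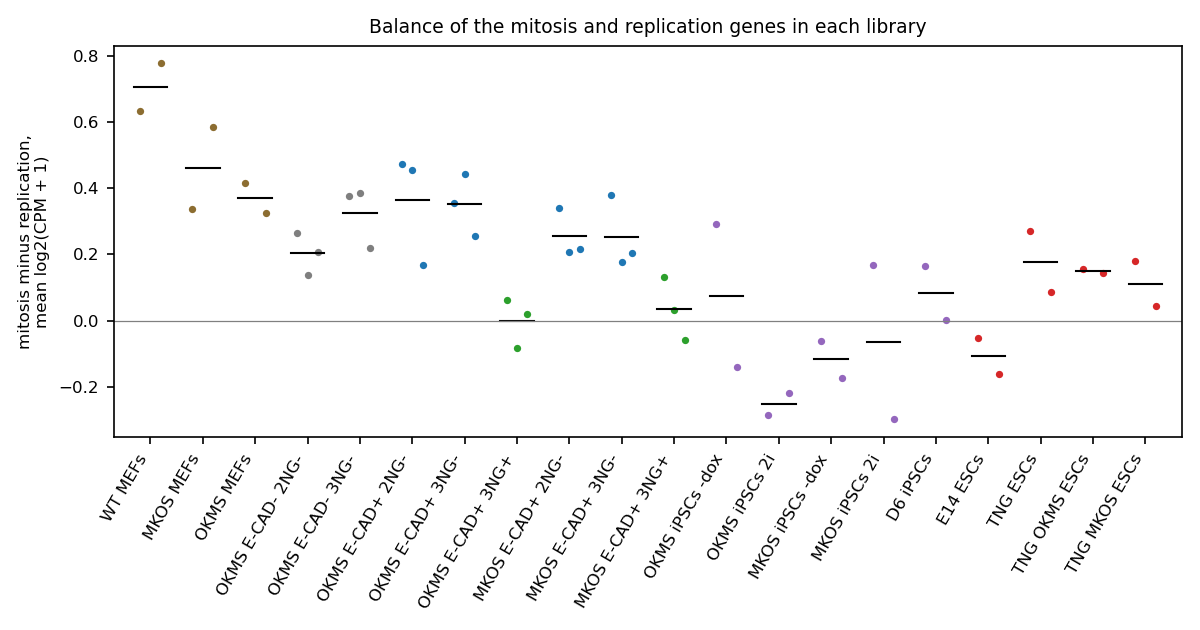
Mean log2(CPM + 1) of the 24 mitosis genes minus that of the 20 replication genes (vertical axis) in each library (points), by condition, with bars at the condition means. WT MEFs lie highest (average 0.70), and the 6 libraries of the 3NG+ populations lie between -0.08 and 0.13.

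The members differed widely in how far they ranged over the 20 condition means. Among the replication genes, Mybl2 ranged 48-fold, Cdt1 12.5-fold, and Pola1 10.7-fold, and Tyms 2.12-fold, Rrm1 2.33-fold, and Gins2 2.49-fold. No range is given for Cdc6, whose lowest condition, MKOS MEFs, includes a library at 0 reads. Among the mitosis genes the range went from 10.3-fold for Aurka to 2.68-fold for Mki67 and 2.44-fold for Cenpe. Over the 20 condition means, which share the library type and the reads they are scaled to, the log2 level of Mcm5 correlated with the mean of the other replication genes at r = 0.99 and that of Mcm3 at r = 0.98. E2f1 (0.53), Gins2 (0.52), and Rrm1 (-0.18) followed their list least. In the mitosis list, r was 0.97 for Tpx2 and 0.96 for Ccnb1, Cenpf, and Plk1, and it was lowest for Mki67 at 0.43.

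The largest contrast of the study, from transgenic MEFs to ESCs of the same genotypes, was called for nearly every member. The test was the quasi-likelihood test of edgeR on all 48 libraries, with the false discovery rate (FDR) over 15630 genes held at 0.05, and fold changes are given as log2 with their SE. Of the replication genes, 18 of 20 rose and none fell, and 24 of 24 mitosis genes rose, where 26.0% of all genes tested were called higher and 25.0% lower. Medians were 1.88 and 1.64 in the lists and 0.00 over all genes.

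Helicase subunits and Cdt1 followed Mybl2 at the head of the replication genes. Mcm5 was measured at 35.1 and 35.9 CPM in the MKOS and at 20.8 and 32.9 CPM in the OKMS MEF libraries, against 189 and 206 CPM in TNG MKOS and 255 and 193 CPM in TNG OKMS ESCs. Every ESC library exceeded every MEF library, and Mcm5 rose by 2.74 ± 0.24 (FDR = 1.25e-12). Mcm2 rose by 2.72 ± 0.22, Mcm3 by 2.89 ± 0.24, Mcm7 by 2.32 ± 0.23, and the loading factor Cdt1 by 3.07 ± 0.27. Pcna, the clamp, had 62.4 to 132 CPM in the 4 MEF libraries and 326 to 368 CPM in the 4 ESC libraries, a rise of 1.92 ± 0.20. Rrm2, the regulated subunit of ribonucleotide reductase, had 29.5 to 76.1 CPM in these MEFs and 132 to 160 CPM in these ESCs, and rose by 1.31 ± 0.24. Its partner Rrm1 did not pass the test (0.20, FDR = 0.381), nor did Gins2 of the GINS complex (0.40, FDR = 0.212). The rises of the remaining replication genes were 1.62 for Mcm4, 1.87 for Mcm6, 2.94 for Cdc6, 1.39 for Gins1, 2.30 for Fen1, 1.88 for Lig1, 1.71 for Pola1, 1.77 for Prim1, and 0.66 for Tyms. The call of Tyms was lost without TNG MKOS ESCs replicate 1 (0.38, FDR = 0.184), TNG OKMS ESCs replicate 2 (FDR = 0.0572), MKOS MEFs replicate 2 (FDR = 0.0592), or OKMS MEFs replicate 2 (FDR = 0.0868). The value of Cdc6 rests on a MEF library at 0 reads, and without the other MKOS MEF library it was 6.21.

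Mybl2 (chr2:163054327-163084688 on GRCm38, plus strand), the B-MYB gene, had the largest rise of all members. Its libraries held 3.48 and 9.53 CPM (MKOS MEFs), 4.27 and 11.0 CPM (OKMS MEFs), 191 and 408 CPM (TNG MKOS ESCs), and 349 and 271 CPM (TNG OKMS ESCs). The lowest ESC library was far above the highest MEF library. The rise was 5.41 ± 0.33 (FDR = 5.97e-17). E2f1, which encodes the activator of S phase genes, was uneven among ESC libraries. It was at 8.91 and 8.86 CPM for MKOS and 5.94 and 17.1 CPM for OKMS among the MEFs, and at 13.9, 44.3, 39.6, and 20.8 CPM in TNG MKOS and TNG OKMS ESCs. The groups overlapped, and the rise was 1.46 ± 0.36 (FDR = 0.000721).

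Among mitosis genes, the 6 smallest FDRs belonged to the checkpoint kinase gene Bub1 (2.38 ± 0.21), the cyclin gene Ccnb1 (2.19 ± 0.20), the spindle pole kinase gene Aurka (2.90 ± 0.27), the APC/C activator Cdc20 (2.32 ± 0.22), the kinetochore gene Cenpf (2.06 ± 0.21), and Top2a (1.6 ± 0.17), which encodes the topoisomerase that untangles sister DNA. Ccnb1 had 70.3 to 91.1 CPM in the 4 MEF libraries and 255 to 428 CPM in the 4 ESC libraries. Top2a had 126 to 202 CPM and 432 to 590 CPM, and Ube2c, the ubiquitin carrier of the APC/C, 62.0 to 90.6 CPM and 265 to 345 CPM. None of these ranges overlapped. Smaller rises that passed the test were those of Cdk1 (1.06 ± 0.17), with 124 to 174 CPM in MEFs and 246 to 376 CPM in ESCs, of the chromosomal passenger gene Birc5 (1.16 ± 0.20), with 97.1 to 142 CPM and 182 to 324 CPM, and of the polo-like kinase gene Plk1 (1.89 ± 0.26), with 14.2 to 25.6 CPM and 66.4 to 73.4 CPM. The smallest was that of Mki67, the proliferation antigen (0.83 ± 0.24), which did not pass without TNG MKOS ESCs replicate 2 (FDR = 0.0542). The other mitosis genes, among them the cyclin genes Ccna2 (1.80) and Ccnb2 (1.67), the kinase genes Aurkb (1.56) and Ttk (2.24), the motor genes Kif11 (1.85) and Kif20a (1.22), and the centromere genes Cenpa (1.47) and Cenpe (0.99), rose by 0.99 to 2.24.

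Genes of the same pathways outside the 44 were counted in the same way. Of 45 other replication genes, 41 rose and 1 fell, with the smallest FDRs for the dUTPase gene Dut (2.33) and for Uhrf1 (2.17), and Tk1, thymidine kinase, fell by 0.71. Of 51 other mitosis genes, 40 rose and 1 fell, led by the cyclin gene Ccnf (2.94) and the separase gene Espl1 (2.88), whereas Anapc4, an APC/C subunit, fell by 0.86. Of 19 genes of E2F, DREAM, and FOXM1 regulation, 8 rose, led by E2f4 (2.07) and E2f2 (3.90), and 1 fell, Rbl2, the p130 pocket protein gene (fell by 1.99).

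**Figure D3:**
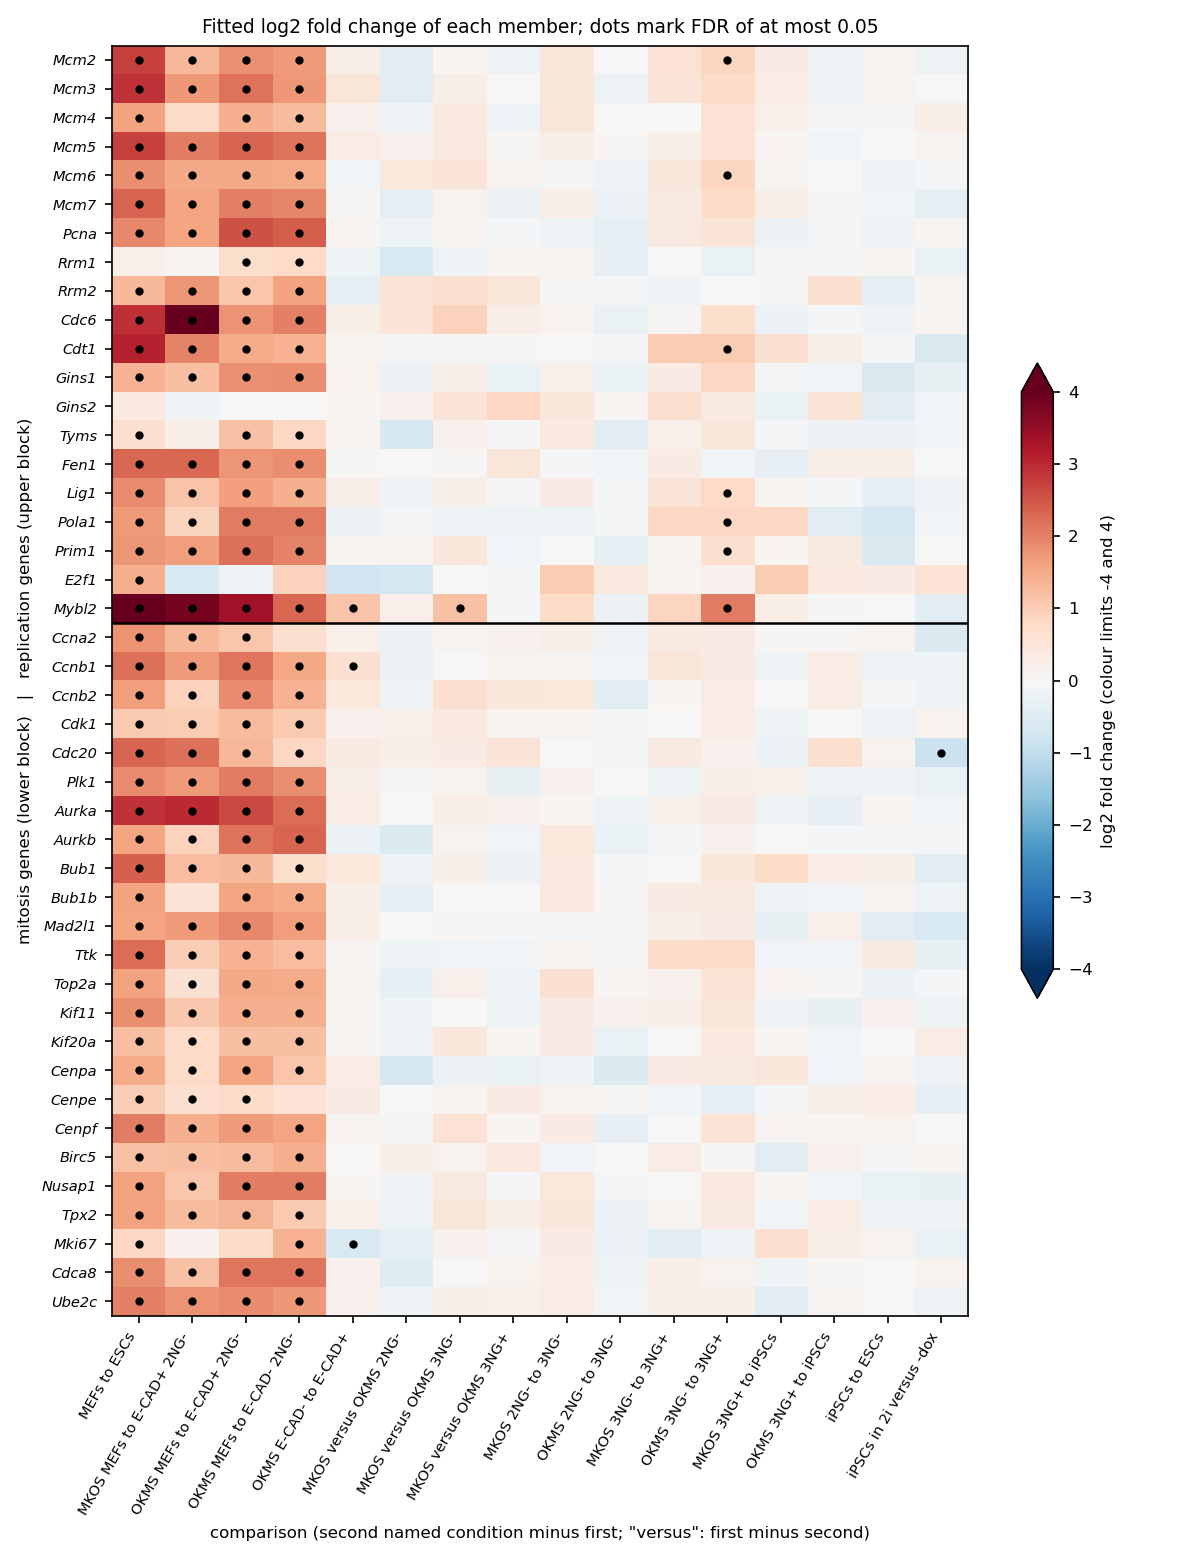
Fitted log2 fold change (colour, limits -4 and 4) of each of the 44 members (rows; replication genes above the line) in 16 comparisons (columns), with dots at an FDR of at most 0.05. The first 4 columns, all from MEFs, hold 160 of the dots, and the other 12 columns hold 12.

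Most members were also called in the step from MEFs to Nanog-GFP- cells. From MKOS MEFs to MKOS E-CAD+ 2NG- cells, 15 of 20 replication genes and 22 of 24 mitosis genes rose and none fell (15.0% of all genes called higher and 12.0% lower, 27.0% together, medians 1.53, 1.13, and 0.00 over all genes). From OKMS MEFs to OKMS E-CAD+ 2NG- cells, 18 and 23 rose and none fell (15.7% and 13.5%, 29.2% together, medians 1.77 and 1.55). From OKMS MEFs to OKMS E-CAD- 2NG- cells, 18 and 22 rose and none fell (11.7% and 10.1%, medians 1.71 and 1.43). The OKMS comparisons share their MEF libraries, and these are the same MEFs that entered the contrast with ESCs. Marker sums moved with these steps. Macrophage markers were at 159 to 1589 CPM in MKOS 2NG- libraries, 132 to 293 CPM in OKMS E-CAD+ 2NG- libraries, and 130 to 931 CPM in OKMS E-CAD- 2NG- libraries, all above the MEFs of their cassette. Fibroblast markers were at 649 to 1218, 205 to 427, and 882 to 936 CPM in the same order, below the 3942 to 6646 CPM of MEFs. The part of either list in the members' changes was not tested.

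In MKOS cells, the smallest FDRs among replication genes were those of Mybl2 (3.82 ± 0.43), Cdc6 (4.0 ± 0.57), the primase gene Prim1 (1.66 ± 0.24), the flap endonuclease gene Fen1 (2.30 ± 0.34), Mcm5 (2.05 ± 0.31), and Pcna (1.56 ± 0.26). Mybl2 had 64.1, 73.1, and 128 CPM in MKOS 2NG- cells, Mcm5 121, 150, and 183 CPM, and Pcna 359, 403, and 327 CPM. All 3 were above both MKOS MEF libraries in each 2NG- library. The value of Cdc6 was 3.17 without the MEF library at 0 reads and 10.5 without the other MEF library. Aurka (3.00 ± 0.37), Cdc20 (2.19 ± 0.30), Ccnb1 (1.70 ± 0.26), Mad2l1 of the spindle checkpoint (1.70 ± 0.27), Ube2c (1.80 ± 0.31), and Cenpf (1.41 ± 0.28) led the mitosis genes. Not called were Mcm4 (0.76, FDR = 0.0677), E2f1 (-0.60), Tyms, thymidylate synthase (0.25), Gins2 (-0.16), Rrm1 (0.10), Bub1b (0.56), and Mki67 (0.16). Of the other pathway genes, 31 of 45 replication genes rose and none fell (Dut 2.61, Gmnn 2.33), 35 of 51 mitosis genes rose (Ccnf 2.13, Anln 2.04) and 2 fell (Anapc5 by 0.73 and Anapc4 by 0.74), and 3 of 19 regulators rose (E2f2 3.54, E2f3 1.47).

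In OKMS E-CAD+ 2NG- cells, the smallest FDRs were those of Pcna (2.55 ± 0.28), Prim1 (2.21 ± 0.25), Mybl2 (3.35 ± 0.41), Mcm5 (2.34 ± 0.32), Pola1, the catalytic subunit of the priming polymerase (2.06 ± 0.29), and Mcm3 (2.18 ± 0.31). Pcna had 314, 409, and 418 CPM, Mcm5 129, 98.6, and 144 CPM, and Mybl2 59.8, 93.2, and 66.6 CPM. No 2NG- library overlapped with OKMS MEFs for these genes. The mitosis genes were led by Ccnb1 (2.14 ± 0.26), Nusap1 of the spindle (2.05 ± 0.27), the chromosomal passenger gene Cdca8 (2.15 ± 0.28), Aurka (2.64 ± 0.36), Aurkb (2.18 ± 0.30), and Mad2l1 (1.91 ± 0.27). E2f1 (-0.22), Gins2 (0.02), and Mki67 (0.73, FDR = 0.0761) did not pass. Of the other genes, 37 of 45 replication genes (Gmnn 3.02, Dut 2.13), 39 of 51 mitosis genes (Cks2 2.06, Spc24 2.27), and 4 of 19 regulators (E2f4 0.99, Lin9 1.26) rose, and Anapc4 fell by 1.03.

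In OKMS E-CAD- 2NG- cells, which had low epithelial markers (67.5 to 192 CPM over the E-CAD- libraries), Pcna came first. Pcna (2.43 ± 0.27) had 349, 437, and 374 CPM, and Mcm5 (2.17 ± 0.31) 131, 99.2, and 138 CPM. Prim1 (1.99 ± 0.25), Pola1 (2.06 ± 0.29), Mcm7 (1.97 ± 0.31), and Mcm2 (1.69 ± 0.29) followed. In the mitosis list, Aurkb (2.33 ± 0.30), Nusap1 (2.06 ± 0.27), Cdca8 (2.15 ± 0.28), Top2a (1.5 ± 0.23), Aurka (2.24 ± 0.35), and Mad2l1 (1.68 ± 0.27) came first. E2f1 (0.92, FDR = 0.16), Gins2 (0.03), Cenpe (0.59, FDR = 0.0737), and Ccna2 (0.65, FDR = 0.0774) did not pass. Of the other genes, 37 of 45 replication genes (Gmnn 2.52, Uhrf1 1.97), 30 of 51 mitosis genes (Spc24 2.40, Cks2 1.79), and 4 of 19 regulators (E2f2 2.71, E2f3 1.42) rose, and Anapc4 fell by 0.89.

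Top2a, Plk1, Birc5, Cdk1, Rrm2, and Ube2c also lay apart from MEFs. Top2a had 275 to 348 CPM in MKOS 2NG-, 339 to 387 CPM in OKMS E-CAD+ 2NG-, and 304 to 534 CPM in OKMS E-CAD- 2NG- libraries. Plk1 had 48.7 to 90.0, 58.3 to 74.0, and 46.1 to 75.5 CPM in the same order, and Birc5 had 285 to 351, 239 to 258, and 288 to 346 CPM. Cdk1 had 308, 338, and 396 CPM in MKOS and 230, 314, and 305 CPM in OKMS E-CAD+ 2NG- cells. Rrm2 had 155, 188, and 232 CPM, and 126, 138, and 108 CPM, in these populations, and Ube2c 175, 304, and 289 CPM, and 267, 309, and 246 CPM. All of these libraries lay above the MEFs of their cassette for all 6 genes. The call of Top2a in MKOS cells was lost without either MKOS MEF library (FDR = 0.078 and 0.273) and without MKOS E-CAD+ 2NG- replicate 1 (FDR = 0.115) or replicate 3 (FDR = 0.0675), and that of Rrm2 in OKMS E-CAD+ cells without either OKMS MEF library (FDR = 0.0531 and 0.0661). Other members did not lie apart. E2f1 in MKOS 2NG- libraries (6.83, 3.69, and 7.45 CPM) was below both MKOS MEF libraries (8.91 and 8.86 CPM), and Mki67 (49.0, 69.8, and 92.7 CPM) overlapped with them (44.5 and 80.0 CPM).

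Whether the step from MEFs differed between cassettes was tested as an interaction, with 2NG- and 3NG- averaged. Of all 44 members, only Cdc6 was called, with an OKMS minus MKOS difference of -2.40 ± 0.65 (FDR = 0.0441), where 0.621% of all genes were called higher and 0.813% lower. Cdc6 (chr11:98907709-98923942 on GRCm38, plus strand), the MCM loader, had 2.76 and 0 CPM in the MEFs with the MKOS cassette, and 3.90 and 7.33 CPM in those with OKMS. The library at 0 reads allows up to 0.665 CPM (3 reads). In E-CAD+ 2NG- cells it had 22.3, 31.3, and 30.1 CPM for MKOS and 18.7, 16.1, and 18.5 CPM for OKMS, and in 3NG- cells 29.3, 23.5, and 44.5 CPM for MKOS and 17.9, 11.0, and 17.9 CPM for OKMS. MKOS libraries were thus lower than OKMS libraries among the MEFs and higher among the 2NG- and 3NG- cells, without overlap in each case. The call was lost in the 41 libraries described below (-2.32, FDR = 0.0617), in the fit to these libraries alone (FDR = 0.114), and in 10 of the fits that left out a library, with -1.62 (FDR = 0.296) without MKOS MEFs replicate 2 and -1.99 (FDR = 0.327) without OKMS MEFs replicate 2. Without MKOS MEFs replicate 1, which leaves the library at 0 reads as the only one of its condition, the value was -8.95 (FDR = 0.000647), which depends on the prior count and is no bound. Pola1 came next (1.24 ± 0.34, FDR = 0.055).

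**Figure D4:**
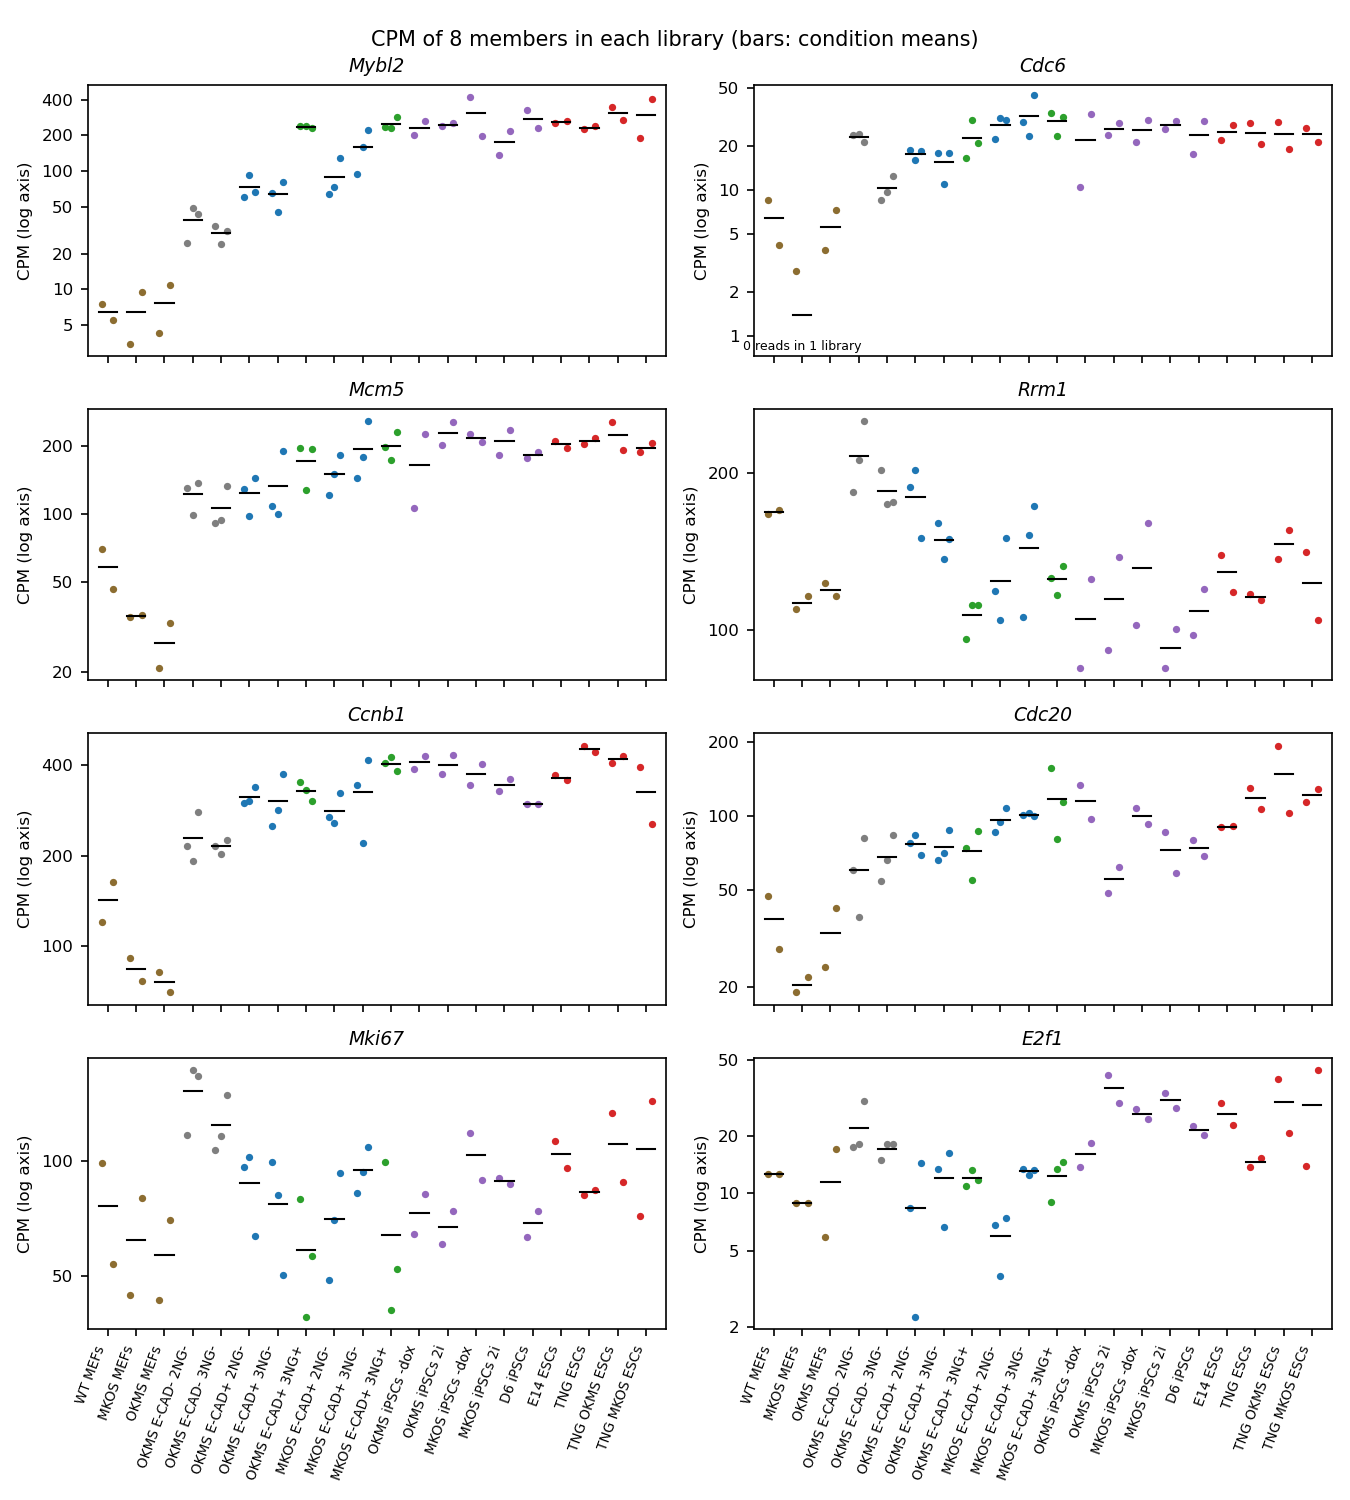
CPM on a log axis of 8 members in each library (points), by condition, with bars at the condition means. Mybl2 climbs from 3.48 CPM in the lowest MEF library to 423 CPM in the highest iPSC library, Cdc6 has 0 reads in 1 MKOS MEF library (named at the foot of its panel and counted in the bar), and Rrm1 and Mki67 are highest in OKMS E-CAD- 2NG- cells.

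Between the E-CAD- and E-CAD+ cells of OKMS cultures, 6 libraries each over both gates, 3 of 44 members were called. This share was no higher than the 7.08% of all genes called, so the members did not stand out as a set. Mybl2 had 24.7, 48.4, and 43.4 CPM in E-CAD- 2NG-, 34.4, 24.1, and 31.3 CPM in E-CAD- 3NG-, 59.8, 93.2, and 66.6 CPM in E-CAD+ 2NG-, and 65.2, 45.5, and 81.0 CPM in E-CAD+ 3NG- cells. Of the E-CAD+ libraries, 5 exceeded all E-CAD- libraries, and the rise was 1.13 ± 0.23 (FDR = 0.000768). Ccnb1 (chr13:100778739-100786486, minus strand) had 191 to 278 CPM in E-CAD- and 251 to 372 CPM in E-CAD+ libraries, which overlapped, and rose by 0.61 ± 0.15 (FDR = 0.00918). In the opposite direction, Mki67 (chr7:135689784-135716450, minus strand) had 117, 172, and 166 CPM in E-CAD- 2NG- and 107, 116, and 148 CPM in E-CAD- 3NG- cells, and 96.0, 102, and 63.8 CPM and 99.2, 81.4, and 50.4 CPM in the E-CAD+ cells of the same gates. All 6 E-CAD- libraries were above all E-CAD+ libraries. It fell by 0.62 ± 0.20 (FDR = 0.0455).

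The 2 higher and 1 lower members compare with 4.69% and 2.39% of all genes, and medians were 0.12 for replication, 0.18 for mitosis, and 0.01 for all genes. Marker sums also differed between these cells. Fibroblast markers had 844 to 1240 CPM in E-CAD- and 205 to 490 CPM in E-CAD+ libraries, macrophage markers 58.8 to 931 CPM and 21.0 to 372 CPM, and their part in the 3 calls was not tested. Mki67 did not pass in 10 of the 12 fits that left out a library (FDR up to 0.143), and Ccnb1 did not without OKMS E-CAD+ 3NG- replicate 3 (FDR = 0.0509). E2f1 was at 15.0 CPM or above in all E-CAD- libraries and at 16.2 CPM or below in all E-CAD+ libraries without passing (-0.76, FDR = 0.108). Of the other genes, Ccnf rose by 0.57 and Pbk fell by 0.70, and no other replication gene or regulator was called.

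Between the cassettes, few members were called in cells of the same gate. In 2NG- cells DESeq2 called 2 members lower in MKOS, and 608 of 13507 genes higher and 509 lower. By edgeR no member was called there (5 had an unadjusted p under 0.05), where 2.84% of all genes were called higher and 2.23% lower in MKOS (5.07% together). Medians were -0.09 and -0.18. The smallest FDRs were those of Cenpa, the centromeric histone gene (-0.66 ± 0.21, FDR = 0.0558), and Rrm1 (-0.62 ± 0.21, FDR = 0.0851). Outside the members, Ccne1, the cyclin E gene, was lower in MKOS by 1.47 on the log2 scale (-1.47 ± 0.26), and Psrc1 by 0.90 (-0.90 ± 0.25).

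In 3NG- cells Mybl2 was higher in MKOS (1.17 ± 0.31, FDR = 0.0337), with 93.6, 160, and 220 CPM against 65.2, 45.5, and 81.0 CPM in OKMS cells. Each MKOS library exceeded each OKMS library. It was the only member called, where 1.38% of all genes were called higher and 0.787% lower, and medians were 0.24 and 0.16. Pluripotency markers were at 7705 to 9732 CPM in MKOS and 1553 to 5414 CPM in OKMS 3NG- libraries and macrophage markers at 151 to 1885 CPM and 21.0 to 372 CPM. Fibroblast markers were at 914 to 1556 CPM in MKOS and 313 to 490 CPM in OKMS 3NG- libraries. The part of these lists in the call was not tested. The call was lost in the fit to these libraries alone (FDR = 0.091) and without MKOS E-CAD+ 3NG- replicate 2 (FDR = 0.1) or replicate 3 (FDR = 0.251) or OKMS E-CAD+ 3NG- replicate 1 (FDR = 0.106) or replicate 2 (FDR = 0.206). Without OKMS E-CAD+ 3NG- replicate 3, 3 members were called. Among the other genes Prc1, a bundler of midzone microtubules, was higher in MKOS (0.84 ± 0.20).

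In 3NG+ cells no member was called between the cassettes (edgeR 0 calls, 2 with an unadjusted p under 0.05, DESeq2 0 calls, background 0.345% higher and 0.339% lower). Mybl2 had 236, 232, and 284 CPM in MKOS and 238, 238, and 232 CPM in OKMS 3NG+ cells, so that the libraries of both cassettes overlapped. Medians were -0.05 and 0.07, and the widest difference was that of Gins2 (0.82 ± 0.31, FDR = 0.247), with 130, 175, and 157 CPM against 65.7, 86.0, and 85.3 CPM. Of the other genes, the APC/C subunit gene Cdc27 was higher in MKOS (1.30 ± 0.29).

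The gain of ICAM1, from 2NG- to 3NG-, moved no member past the threshold in either cassette. In MKOS cells 35 of 44 fold changes were positive, with medians of 0.23 and 0.30 (edgeR 0 calls, 4 with an unadjusted p under 0.05, DESeq2 0, background 0.352% higher and 0.0384% lower, 0.390% together). In OKMS cells 9 of 44 were positive, with medians of -0.15 and -0.10 (edgeR 0 calls, 1 with an unadjusted p under 0.05, DESeq2 0, background 0.0384% higher and 0% lower). Top2a had the smallest FDR in MKOS cells (0.61 ± 0.19, FDR = 0.261), with 348, 275, and 314 CPM in 2NG- and 465, 395, and 662 CPM in 3NG- libraries. E2f1 followed with 6.83, 3.69, and 7.45 CPM and 13.4, 12.4, and 13.2 CPM (1.03 ± 0.42, FDR = 0.534). In these 2 genes the gates did not overlap. Ccne1 was the only other pathway gene called (1.25 ± 0.26 in MKOS).

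From 3NG- to 3NG+ in OKMS cells, the edgeR calls fell on genes of the replication list, but the lists were not tested against each other. The call with the smallest FDR was that of Mybl2, a regulator placed in that list, whose product acts ahead of mitosis. Fold changes were positive for 18 of 20 replication and 22 of 24 mitosis genes. DESeq2 called 9 replication genes and 1 mitosis gene higher, and 697 of 12901 genes higher and 784 lower. By edgeR, 7 of 20 replication genes rose and none fell, and of 24 mitosis genes none was called (3 had an unadjusted p under 0.05). In that fit 3.06% of all genes were called higher and 3.21% lower (6.26% together). Medians were 0.69 and 0.32, and -0.06 over all genes. Mybl2 rose from 65.2, 45.5, and 81.0 CPM to 238, 238, and 232 CPM, by 2.08 ± 0.32 (FDR = 4.67e-05). The other 6 were Mcm6 (0.85 ± 0.24, FDR = 0.0234), Pola1 (0.84 ± 0.24, FDR = 0.0258), Cdt1 (1.02 ± 0.29, FDR = 0.0276), Mcm2 (0.85 ± 0.24, FDR = 0.0286), the DNA ligase gene Lig1 (0.79 ± 0.23, FDR = 0.0322), and Prim1 (0.68 ± 0.20, FDR = 0.0345).

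Cdt1 had 30.6, 22.6, and 42.1 CPM in OKMS 3NG- and 57.1, 63.6, and 48.4 CPM in 3NG+ libraries, and Pola1 had 50.1, 60.2, and 66.4 CPM and 93.7, 100.02, and 82.1 CPM. Mcm6 had 60.1, 60.9, and 82.2 CPM and 116, 118, and 86.3 CPM. These 3 genes had no overlap between the gates. Mcm2 had 72.8, 57.6, and 139 CPM and 139, 128, and 155 CPM, with replicate 3 of 3NG- above 2 of the 3NG+ libraries, and without that replicate the rise of Mcm2 was 1.34. The same library stood apart in the summed levels (2585 and 3772 CPM, against 1708 to 1790 and 2656 to 2657 CPM) and had 21.0 CPM of macrophage markers against 356 and 372 CPM in the other libraries of its condition. Its pluripotency markers were at 5414 CPM against 2265 and 1553 CPM, and Nanog was at 45.0 CPM against 20.3 and 17.9 CPM. Their part in the result was not tested. Without it, 17 members were called in place of 7, and the share over all genes in that fit is not given here. Of the other leave-one-out fits, those without OKMS E-CAD+ 3NG- replicate 1 or 2 or OKMS E-CAD+ 3NG+ replicate 1 left 1 call, Mybl2, and those without OKMS E-CAD+ 3NG+ replicate 2 or 3 left 4. In the fit to these 6 libraries alone Mybl2 was also the only call. A fit to 41 libraries left out replicate 3 of all 2NG- and 3NG- populations, and so also the library that stood apart, and replicate 2 of OKMS E-CAD+ 3NG+. In it 14 replication and 7 mitosis genes rose, where 734 of all 15432 genes were called higher and 727 lower. Replicate 3 stayed in 3NG+ populations, so gate and replicate number are partly confounded in this fit. Summed replication genes were highest in replicate 3 in 7 of 8 sorted populations, and the part of this in the calls was not tested.

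From 3NG- to 3NG+ in MKOS cells, DESeq2 called 2 members, and 247 of 12901 genes higher and 362 lower. By edgeR no member passed there, and 17 of 20 replication and 18 of 24 mitosis fold changes were positive (0 calls, 6 replication and 2 mitosis genes with an unadjusted p under 0.05, background 0.557% higher and 1.02% lower, 1.58% together). In the fit to these libraries alone 2 members were called, without the filter on low counts 2, and with the replicate number as a block 2. In the 41 libraries, with the same imbalance of replicate 3 between the gates, 4 were called, where 208 of all 15432 genes were called higher and 351 lower. Medians were 0.34 and 0.18, against -0.04 over all genes. Cdt1 (1.02 ± 0.29, FDR = 0.0568) had 24.7, 40.3, and 43.1 CPM in 3NG- and 55.1, 58.9, and 77.6 CPM in 3NG+ libraries, which did not overlap. Pola1 (0.82 ± 0.24, FDR = 0.0607) had 61.3, 29.4, and 77.3 CPM and 97.0, 67.4, and 101 CPM, and Mybl2 (0.85 ± 0.31, FDR = 0.146) 93.6, 160, and 220 CPM and 236, 232, and 284 CPM. The difference between cassettes in this step was itself tested, and no member was called (edgeR 0 calls, 2 with an unadjusted p under 0.05, DESeq2 0, background 0.0128% higher and 0.0128% lower). For Mybl2 it was 1.23 ± 0.44 (FDR = 0.431), OKMS minus MKOS. The calls in OKMS cells alone therefore do not show a difference between the cassettes.

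**Figure D5:**
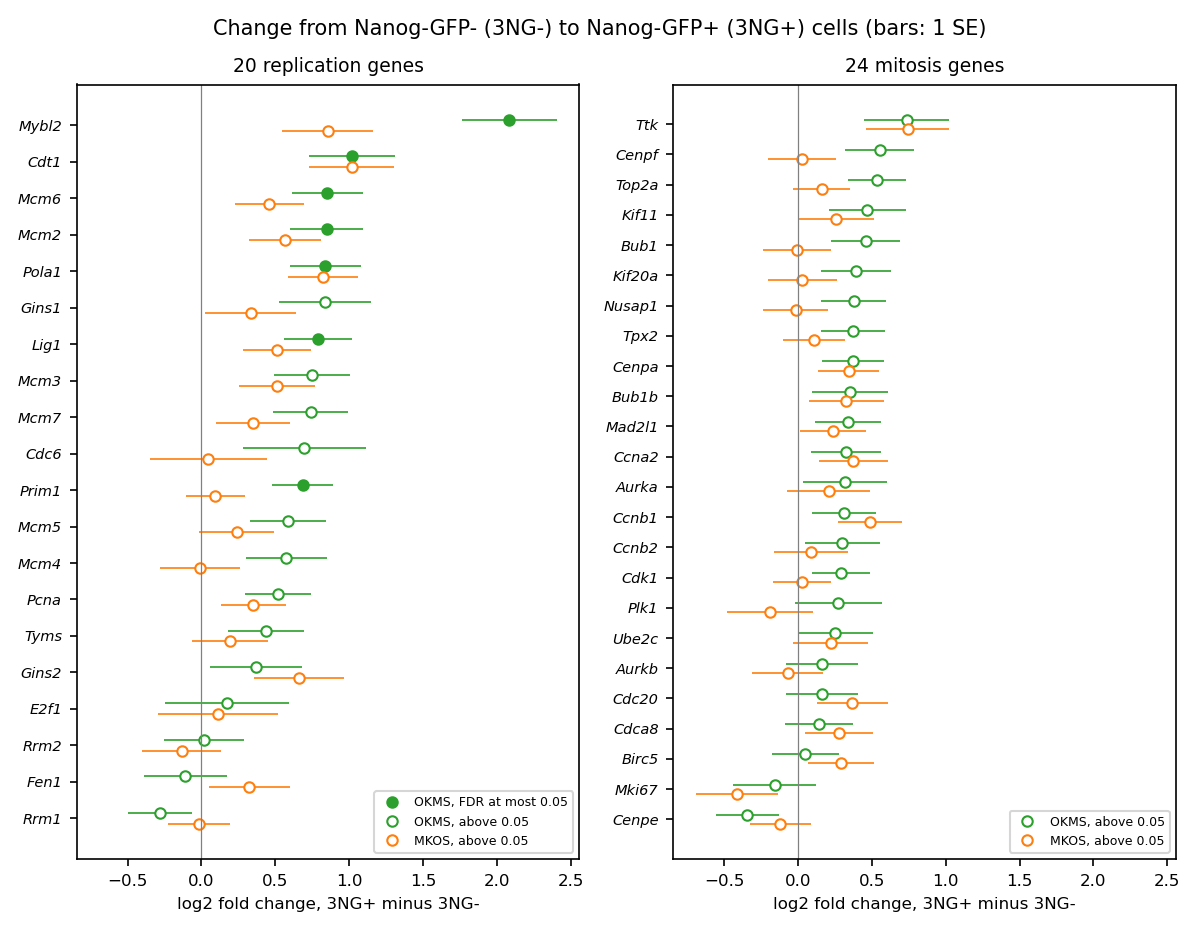
Fitted log2 fold change from 3NG- to 3NG+ (horizontal axes, points with bars of 1 SE) of the 20 replication genes (left) and 24 mitosis genes (right), in OKMS (green) and MKOS (orange) cells, with filled points at an FDR of at most 0.05. The 7 filled points are OKMS replication genes, with Mybl2 at 2.08 farthest to the right.

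Pathway genes outside the lists were called in both processes in the OKMS step. Of 45 other replication genes 6 rose, led by the chromatin assembly gene Chaf1b (1.13 ± 0.26) and the origin recognition gene Orc5 (1.25 ± 0.29), and of 51 other mitosis genes 6 rose, led by Espl1 (1.41 ± 0.27) and Ccnf (0.97 ± 0.22). Tfdp1, which encodes the dimer partner of E2F factors, fell by 1.09. In MKOS cells Uhrf1 rose by 0.72.

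No member was called from 3NG+ cells to iPSCs or from iPSCs to ESCs. From MKOS 3NG+ cells to MKOS iPSCs (-dox) this was so by edgeR, whereas DESeq2 called 1 member, and 199 of 13204 genes higher and 368 lower. By edgeR there were 0 calls (4 with an unadjusted p under 0.05, background 0.825% higher and 1.32% lower, medians 0.10 and -0.08). Pola1 was nearest, with 97.0, 67.4, and 101 CPM in 3NG+ cells and 164 and 158 CPM in iPSCs, which did not overlap (0.84 ± 0.26, FDR = 0.0805). From OKMS 3NG+ cells to OKMS iPSCs, again no member was called (edgeR 0 calls, 2 with an unadjusted p under 0.05, DESeq2 0, background 0.301% higher and 0.313% lower, medians -0.06 and 0.06), and Orc4 alone rose among the other pathway genes (1.28 ± 0.31). From iPSCs to TNG MKOS and TNG OKMS ESCs, DESeq2 called 2 members lower, and 122 of 12598 genes higher and 381 lower. By edgeR the members remained uncalled there (0 calls, 4 with an unadjusted p under 0.05, background 0.269% higher and 1.13% lower, 1.40% together, medians -0.12 and 0.01). Prim1 (-0.59 ± 0.17, FDR = 0.0743) and Pola1 (-0.68 ± 0.20, FDR = 0.082) were nearest, and Tk1 (fell by 1.06) and Pttg1, the securin gene (fell by 1.31), were called outside the members.

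Between iPSCs in 2i and without doxycycline, 1 of 44 members was called, a share no higher than that of all genes. Cdc20 (chr4:118432901-118437343, minus strand) had 86.3 and 58.5 CPM in MKOS and 48.6 and 62.0 CPM in OKMS iPSCs in 2i, and 107 and 92.4 CPM and 133 and 97.4 CPM in the -dox iPSCs. No library in 2i reached the lowest of the others. It was lower by 0.87 on the log2 scale in 2i (-0.87 ± 0.21, FDR = 0.00971), where 1.89% of all genes were called higher and 2.45% lower (4.34% together). It did not pass in the fit to these libraries alone (FDR = 0.0599) and without MKOS iPSCs 2i replicate 2 (FDR = 0.0669), OKMS iPSCs 2i replicate 1 (FDR = 0.0736), or OKMS iPSCs -dox replicate 1 (FDR = 0.0775). Medians were -0.07 and -0.18, with Mad2l1 (-0.61 ± 0.19, FDR = 0.0643) and Ccna2 (-0.59 ± 0.20, FDR = 0.0947) next. Ccne1 fell by 1.07 and Ndc80, of the outer kinetochore, by 0.78 among the other pathway genes.

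The members that followed their lists least each had a shape of their own. Rrm1, the large subunit of ribonucleotide reductase, was highest in OKMS E-CAD- 2NG- cells, with 184, 212, and 252 CPM, and had 167 and 170 CPM in WT MEFs, against 84.5 and 101 CPM in MKOS iPSCs in 2i. E2f1 was lowest in MKOS 2NG- cells, at 6.83, 3.69, and 7.45 CPM, below the 8.86 and 8.91 CPM of MKOS MEFs, and highest in OKMS iPSCs in 2i, at 41.6 and 29.9 CPM. Gins2 was lowest in OKMS E-CAD+ 2NG- cells, at 42.3, 48, and 95.1 CPM, with replicate 3 above the others, and it was at 105.5 and 106 CPM in WT MEFs. Mki67 was highest in OKMS E-CAD- 2NG- cells, at 117, 172, and 166 CPM, and in 3NG+ cells had 79.3, 39.2, and 56.5 CPM (OKMS) and 99.3, 40.7, and 52.1 CPM (MKOS), which overlapped with the 44.5 and 80.0 CPM of MKOS MEFs. These shapes are descriptions over conditions with 2 or 3 libraries each.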

How the data were processed

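RNA of sorted cells, MEFs, iPSCs, and ESCs was sequenced from 5′ ends by STRT, and the authors deposited 1 table of raw read counts per transcript for 48 libraries, with repeat types and spike-ins, which were left out of library sizes and tests. Reads mapping to several places had been assigned to the most 5′ exonic hit by the authors, so that genes with near-identical copies may hold reads of them. The submitters' processing notes name Bowtie 0.12.7 and mm10, whereas the methods name an older build, and no coordinate of the table is printed. A further column, the authors' total of uniquely mapped reads, gave the unique shares.

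Libraries were grouped by their labels. Transcripts were filtered with filterByExpr, scaled by TMM, and fitted in edgeR 4.0.16 (R 4.3.3) with 1 coefficient per condition over all 48 libraries. The quasi-likelihood test was two-sided, and p-values were adjusted by Benjamini-Hochberg over 15630 genes. An SE is the log2 fold change divided by the root of F. CPM are unadjusted by TMM. Scripts were tested on counts simulated for MKOS versus OKMS 2NG- cells, with those libraries alone and a common dispersion of 0.217 for all genes. There edgeR called 2 of 100 genes changed 2-fold and 32 of 100 changed 4-fold. These rates do not give the power of the main fits, which shared their estimate of spread over 48 libraries. A member that was not called may still have changed. Alternatives were DESeq2 1.42.0, its size factors used within edgeR, all genes with at least 1 read in place of the filter, the replicate number as a block, 41 libraries, the compared libraries alone, and each library left out in turn, reusing the trended dispersion and the genes of the full fit.

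The members and all lists were chosen with earlier results of these data known. Called members are named in each comparison, or the 6 with the smallest FDR where a list has more, and of other lists the 2 with the smallest FDR per direction. Remarks on members that missed the threshold were chosen after their values were seen. Promoter windows and gene positions came from RefSeq on GRCm38.p6. Of the 54 other mitosis genes listed, 51 were in the table. Endothelial markers summed to 1.28 to 49.4 CPM in all libraries.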

Additional observations from a re-analysis of the deposited data

Results flagged for a closer look

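The step from MEFs to E-CAD+ 2NG- and 3NG- cells differed between cassettes for Cdc6, by the test of the difference itself. The OKMS minus MKOS difference was -2.4036 on the log2 scale (edgeR, FDR = 0.0441). A library at 0 reads, MKOS MEFs replicate 2, entered it, and without that library the difference was -1.62 (FDR = 0.296). Without MKOS MEFs replicate 1, with the library at 0 reads left alone, it was -8.95 (FDR = 0.000647), a value that depends on the prior count. In the 41 libraries it was -2.32 and did not pass (FDR = 0.0617).

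The libraries of Tyms, which encodes thymidylate synthase, differed in opposite directions between 2NG- and 3NG- cells of MKOS and OKMS cultures. The gates did not overlap in either cassette. In MKOS cells its libraries held 116, 158, and 127 CPM in 2NG- and 164, 196, and 202 CPM in 3NG- cells, a log2 ratio of the means of 0.4863. In OKMS cells they held 182, 220, and 184 CPM and 160, 134, and 163 CPM, a ratio of -0.3602. The difference between the cassettes was not tested, and neither step was called by edgeR (FDR = 0.825 in MKOS and 0.977 in OKMS). Tyms was picked from among all members for this pattern after their values were seen. How often such a pattern arises by chance, or among all genes, was not tested. The values therefore do not show that Tyms changed with the gain of ICAM1, or that the cassettes differed.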

How the results depend on the processing

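Counts of members called, of 44, kept within 1.5 times the main count in 80 of 108 alternatives, and no log2 fold change of a called member reversed in any alternative. DESeq2 called 2 members in place of 0 between MKOS and OKMS 2NG- cells, 2 in place of 0 from MKOS 3NG- to 3NG+, 1 in place of 0 from MKOS 3NG+ to iPSCs, 2 in place of 0 from iPSCs to ESCs, 2 in place of 1 in 2i versus -dox, and 2 in place of 1 for the cassette difference from MEFs. Over all genes, DESeq2 called 445 of 13507 higher and 541 lower in 2i versus -dox. For the cassette difference from MEFs, it called 185 of 12598 genes higher and 239 lower. DESeq2 size factors gave 1 from iPSCs to ESCs and 2 for the cassette difference from MEFs. Without the filter on low counts, 2 members were called from MKOS 3NG- to 3NG+ and 1 for the cassette difference in that step. In the 41 libraries, the counts were 1 between E-CAD- and E-CAD+ (main 3), 1 and 0 between cassettes in 2NG- and 3NG- cells (main 0 and 1), 4 from MKOS 3NG- to 3NG+ (main 0), 21 from OKMS 3NG- to 3NG+ (main 7), and 2 and 2 from MKOS 3NG+ to iPSCs and from iPSCs to ESCs (main 0 and 0). The 1 member called there for the cassette difference from MEFs, as many as in all 48 libraries, was not Cdc6. Replicate 3 was left out of 3NG- but not of 3NG+ populations there. Gate and replicate number are thus partly confounded in the 41-library counts from 3NG- to 3NG+. Fits to the compared libraries alone gave 1 and 0 between cassettes in 2NG- and 3NG- cells, 2 and 1 from 3NG- to 3NG+ in MKOS and OKMS cells, 0 in 2i versus -dox, and 0 for the cassette difference from MEFs. The causes were not tested.

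With each library left out in turn, counts ranged from 41 to 42 from MEFs to ESCs, 29 to 37 from MKOS MEFs and 37 to 42 from OKMS MEFs to E-CAD+ 2NG- cells, 33 to 40 to E-CAD- 2NG- cells, 1 to 3 between E-CAD- and E-CAD+, 0 to 1 and 0 to 3 between cassettes in 2NG- and 3NG- cells, 0 to 1 and 1 to 17 from 3NG- to 3NG+ in MKOS and OKMS cells, 0 to 2 from iPSCs to ESCs, 0 to 2 in 2i versus -dox, and 0 to 2 for the cassette difference from MEFs. The others stayed at 0.

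Sorted libraries of equal replicate number were not treated as pairs, since by the rule used all of them had to correlate above 0.1. Any effect shared by replicate number, such as that of the marker sums given above, therefore stays in the main fits. Deviations from condition means correlated at 0.104 on average over 84 pairs with the same number (-0.0593 to 0.444, 36 over 0.1) and at -0.0517 over 168 other pairs, and 20 of 24 libraries correlated best with their own number, a hint from the data and not from the design. With the replicate block, the counts were 1 between cassettes in 2NG- cells, 2 and 10 from 3NG- to 3NG+ in MKOS and OKMS cells, 1 from MKOS 3NG+ to iPSCs, 2 in 2i versus -dox, and 2 for the cassette difference from MEFs.

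Summed CPM were 0.909 to 1.15 times the main value with TMM-scaled library sizes and 1.06 to 1.12 times without mitochondrial genes. Depth limits the members with few reads most, such as Cdc6 and E2f1.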
